A study of Mus musculus with 4 samples.

Results

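The 10 genes described here encode enzymes and cofactors that write or read repressive and transcription-linked histone methylation. They are Setd2 and Nsd1 for lysine 36 of histone H3, Ezh1, Ezh2, Eed and Suz12 for lysine 27, and Setdb1, Trim28, Ehmt1 and Ehmt2 for lysine 9. They are a list of names that uses no cutoff on measured values, taken from 54532 gene identifiers counted in every library, and all 10 were among the 19446 genes with enough reads to be tested. Bulk RNA was sequenced from 4 libraries of C3H10T1/2, an established mouse mesenchymal stem cell line. The study asked how transcription that runs through a neighbouring promoter silences it, with Mmachc as the silenced gene.

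The DKO group held 2 clones, numbered 1 and 5, labelled as double knockouts of DNMT3A and DNMT3B, the enzymes that place new DNA methylation. PRDX1MT was 1 library of cells with a CRISPR edit at the splice acceptor of Prdx1 intron 5, whose genotype label reads PRDX1-KO. WT was 1 library of unedited cells. All libraries came from the same cell line and culture protocol, and a Prdx1 edit in the DKO clones is neither stated nor denied by the labels. Each DKO library is 1 clone, so a difference between clones and an effect of the knockout cannot be told apart within a single library, and PRDX1MT and WT have no replicate.

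SETD2 travels with elongating RNA polymerase and adds the last methyl group of H3K36me3, the mark of transcribed gene bodies, while NSD1 makes H3K36me2 over broader domains. Both marks are read by the DNMT3 enzymes, which ties them to DNA methylation. Polycomb repressive complex 2 (PRC2) methylates H3K27, with EZH1 or EZH2 as its alternative catalytic subunit and EED and SUZ12 as subunits needed for activity. EZH2 is typical of dividing cells and EZH1 of resting ones. TRIM28 (KAP1) is the corepressor that zinc finger proteins with a KRAB domain recruit, and it brings in SETDB1 to make H3K9me3. EHMT1 (GLP) and EHMT2 (G9a) work as a pair that makes H3K9me1 and H3K9me2.

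Levels are given as CPM, the read count of a gene relative to the size of its library, after TMM scaling, which corrects for differences in composition between libraries. Libraries held 27570136 to 37685798 counts. Prdx1 was at 392 and 332 CPM in DKO clones 1 and 5, at 31.2 CPM in PRDX1MT and at 399 CPM in WT. Dnmt3a was at 31.4 and 25.9 CPM in DKO clones 1 and 5, at 80.9 CPM in PRDX1MT and at 43.7 CPM in WT, and Dnmt3b lay between 2.03 and 3.74 CPM in all 4 libraries. Counts per gene do not check a knockout whose deleted part the labels do not give. Of the mesenchymal markers, all 13 were detected in every library, with a summed level of 22750 and 41090 CPM in DKO clones 1 and 5, 34570 CPM in PRDX1MT and 23040 CPM in WT. The sum hides single markers that moved. By the 2-fold size rule described below, 3 were lower and 0 higher in PRDX1MT against WT (9.67% of all genes met it). In clone 1 against WT, 2 were lower and 2 higher (10.6% of all genes), and in clone 5, 2 lower and 3 higher (9.27%). In DKO against WT, 1 was lower at an edgeR adjusted p under 0.05, as were 88 of all 19446 genes. Immune, endothelial, epithelial and pluripotency markers summed to at most 18.3 CPM per list and library, and Cd3e, Adgre1, Epcam, Zfp42, Esrrb and Dppa5a were at 0 in all 4 libraries.

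The promoters of the 4 PRC2 genes are shown because these genes differed most among the libraries. RefSeq (GRCm38.p6) promoter sequences were matched for 9 of the 10 genes, all but Nsd1. Each sequence runs 5′ to 3′ on the gene's own strand from 250 bases before the annotated start to 30 bases after it. Capitals mark 2 sets of letters read on both strands, the box CCAAT, which factor NF-Y binds, and 4 spellings of an E2F-like site (TTTCCCGC, TTTGGCGC, TTTCGCGC and TTTGCCGC). E2F factors drive genes of the cell division cycle. The Ezh1 window is chr11:101226434-101226713 (minus strand), the Ezh2 window chr6:47595001-47595280 (minus strand), the Eed window chr7:89980947-89981226 (minus strand) and the Suz12 window chr11:79992856-79993135 (plus strand).
Ezh1: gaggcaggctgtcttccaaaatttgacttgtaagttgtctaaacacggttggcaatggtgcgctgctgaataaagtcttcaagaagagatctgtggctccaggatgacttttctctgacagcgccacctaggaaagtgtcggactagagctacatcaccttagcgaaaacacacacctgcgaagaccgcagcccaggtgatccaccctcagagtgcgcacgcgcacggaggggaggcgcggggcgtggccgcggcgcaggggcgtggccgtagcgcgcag
Ezh2: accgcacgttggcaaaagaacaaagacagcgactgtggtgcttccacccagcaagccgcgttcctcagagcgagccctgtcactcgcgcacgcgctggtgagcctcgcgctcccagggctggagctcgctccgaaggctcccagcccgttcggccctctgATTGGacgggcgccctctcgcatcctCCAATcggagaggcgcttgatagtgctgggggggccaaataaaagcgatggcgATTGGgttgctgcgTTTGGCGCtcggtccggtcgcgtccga
Eed: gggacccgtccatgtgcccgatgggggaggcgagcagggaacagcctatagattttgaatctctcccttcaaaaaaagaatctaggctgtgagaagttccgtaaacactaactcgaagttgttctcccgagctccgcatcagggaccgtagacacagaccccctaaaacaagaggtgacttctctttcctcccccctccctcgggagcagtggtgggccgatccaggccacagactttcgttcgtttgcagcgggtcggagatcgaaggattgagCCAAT
Suz12: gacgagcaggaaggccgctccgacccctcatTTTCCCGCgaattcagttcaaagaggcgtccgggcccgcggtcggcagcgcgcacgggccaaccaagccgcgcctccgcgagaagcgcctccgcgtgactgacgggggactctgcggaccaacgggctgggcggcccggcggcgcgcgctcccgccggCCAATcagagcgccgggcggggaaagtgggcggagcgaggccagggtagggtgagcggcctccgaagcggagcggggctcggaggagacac

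Ezh2 held 3 CCAAT boxes, at 90, 64 and 11 bases before the start, and the E2F letters TTTGGCGC 4 bases after it. Suz12 held the E2F letters TTTCCCGC 219 bases before its start and 1 CCAAT box 61 bases before it. Eed held 1 CCAAT box, 26 bases after the start, and Ezh1 held neither set of letters. Among 32851 promoter windows of the same length, 2.12% held the E2F letters, 36.1% held a CCAAT box and 3.19% held 3 or more. The 4 windows held 21 CG pairs in Ezh1, 30 in Ezh2, 15 in Eed and 41 in Suz12, against a median of 6 over all windows. Of all windows, 78.3%, 90.8%, 67.9% and 97.6% held fewer than these. The windows of the other matched genes held between 15 (Setdb1) and 38 (Ehmt2), so such counts were not particular to the PRC2 genes. A match is only a run of letters, and no binding was measured here.

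Levels of different genes were set side by side per kilobase of merged exon. On that scale, the order of the 10 genes was much the same in every library at both ends. Places depend on the length used. By longest transcript, Ezh2 made up 53.04% of Ezh1 plus Ezh2 in WT, against 45.47% by merged exon. Trim28 was highest, at 51.8 and 76.9 CPM per kilobase in DKO clones 1 and 5, 69.1 in PRDX1MT and 60.5 in WT. Ehmt2 came next in all 4 libraries, at 43.8 and 44.7 CPM per kilobase in DKO clones 1 and 5, 44.3 in PRDX1MT and 36.8 in WT. Eed was lowest in all 4, at 3.80 and 4.73 CPM per kilobase in DKO clones 1 and 5, 2.77 in PRDX1MT and 4.55 in WT. Between these, the other 7 genes lay between 3.61 and 15.4 CPM per kilobase and changed places from library to library. Ezh1 took place 3 in DKO clone 1 and place 9 in DKO clone 5, and Ezh2 took place 9 in clone 1 and place 3 in clone 5. Neighbours in that middle range, such as Setd2 and Nsd1 or Ehmt1 and Setd2, were closer to each other than the DKO clones were for Ezh1 or Ezh2.

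**Figure D1:**
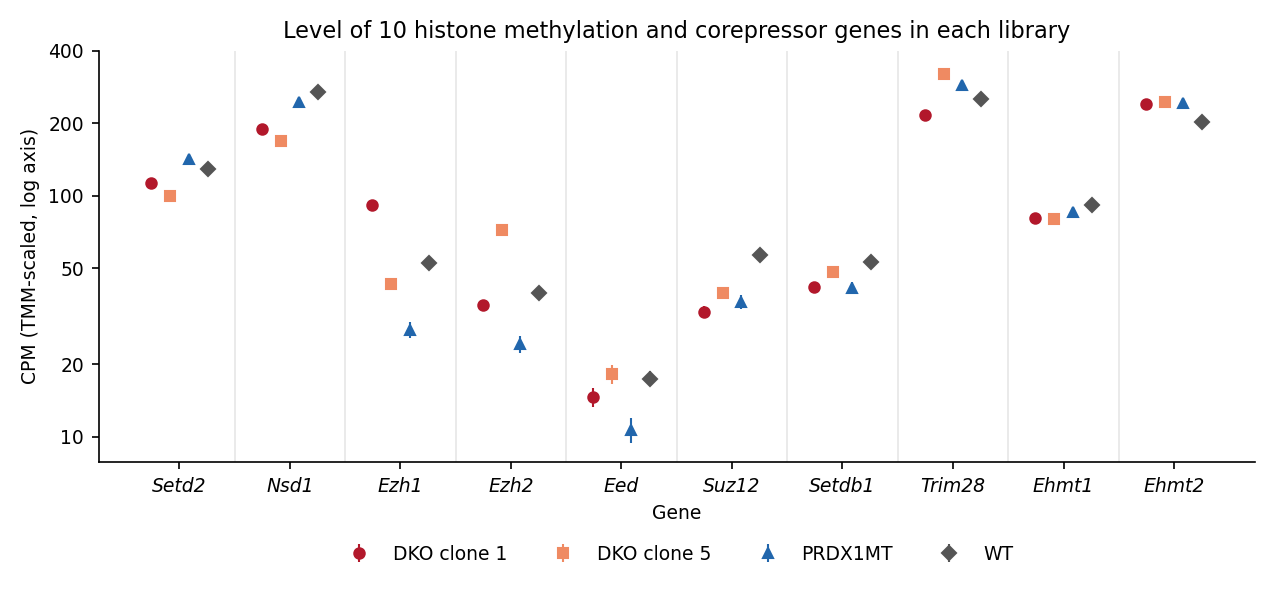
Level of each gene (CPM after TMM scaling, log axis) in DKO clone 1, DKO clone 5, PRDX1MT and WT, with exact 95% Poisson intervals that cover counting error only and are mostly smaller than the points. Ezh1 and Ezh2 spread most, from 27.7 to 91.7 CPM and from 24.1 to 72.3 CPM, while Ehmt1 stayed between 80.0 and 91.4 CPM.

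Over the 4 libraries, the highest level exceeded the lowest 3.32-fold for Ezh1 and 3.0-fold for Ezh2. Among the 8906 genes averaging at least 10 CPM, 92% had a smaller range than Ezh1 and 90.1% a smaller range than Ezh2. At the other end, Ehmt1 ranged 1.14-fold and Ehmt2 1.22-fold, and only 2.71% and 8.29% of genes had smaller ranges. The median range was 1.54-fold over the 10 genes and 1.63-fold over all 8906.

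Setd2 and Nsd1 had lower levels in both DKO clones than in either other library, and neither difference passed the test. The difference of Setd2 from WT shrank with a correction for GC content, given below. Setd2 was at 113 and 99.4 CPM in DKO clones 1 and 5, at 142 CPM in PRDX1MT and at 130 CPM in WT. Nsd1 was at 189 and 169 CPM in DKO clones 1 and 5, at 244 CPM in PRDX1MT and at 269 CPM in WT. The clones did not overlap the other libraries for either gene. Setd2 averaged 106 ± 9.77 CPM in DKO (SD, n = 2), and its log2 ratio to WT was -0.28 (SE 0.45, 95% interval -1.33 to 0.76, edgeR adjusted p = 0.9996). Nsd1 averaged 179 ± 13.9 CPM in DKO (SD, n = 2), with a log2 ratio to WT of -0.59 (SE 0.46, 95% interval -1.66 to 0.49, edgeR adjusted p = 0.9996). Against PRDX1MT the log2 ratios were -0.42 for Setd2 and -0.45 for Nsd1, and neither passed. Counting both directions, 15.4% of all genes tested lay lower in both DKO clones than in WT and PRDX1MT and 12.6% higher in both, against 3 of the 10 genes lower (Setd2, Nsd1 and Ehmt1) and 0 higher.

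The 4 PRC2 genes of the 10 were lower in PRDX1MT than in WT, and between the DKO clones the 2 catalytic subunits differed in opposite directions. Ezh1 was at 91.7 and 43.0 CPM in DKO clones 1 and 5, at 27.7 CPM in PRDX1MT and at 52.6 CPM in WT. Ezh2 was at 35.1 and 72.3 CPM in DKO clones 1 and 5, at 24.1 CPM in PRDX1MT and at 39.4 CPM in WT. The clones thus lay on either side of WT for both genes, Ezh1 being high in clone 1 and Ezh2 in clone 5. Eed, which binds the finished H3K27me3 mark, was at 14.6 and 18.1 CPM in DKO clones 1 and 5, at 10.6 CPM in PRDX1MT and at 17.4 CPM in WT. Suz12, the scaffold of the complex, was at 32.9 and 39.4 CPM in DKO clones 1 and 5, at 36.2 CPM in PRDX1MT and at 56.8 CPM in WT. PRDX1MT was the lowest library for Ezh1, Ezh2 and Eed, and WT the highest for Suz12.

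Neither DKO comparison called any of the 4. The DKO mean was 67.4 ± 34.4 CPM for Ezh1 and 53.7 ± 26.3 CPM for Ezh2 (SD, n = 2). Against WT, the log2 ratio was 0.36 for Ezh1 (SE 0.56, 95% interval -0.95 to 1.66) and 0.45 for Ezh2 (SE 0.56, 95% interval -0.85 to 1.74), with an edgeR adjusted p of 0.9996 for both. Against PRDX1MT, Ezh1 had a log2 ratio of 1.28 (SE 0.59, 95% interval -0.09 to 2.65) and an unadjusted p of 0.0624 by edgeR. Ezh2 had a log2 ratio of 1.15 against PRDX1MT (SE 0.58, 95% interval -0.19 to 2.5) and an unadjusted p of 0.0825 by edgeR. Both were at an edgeR adjusted p of 1. Suz12 was at -0.65 against WT (SE 0.44, 95% interval -1.67 to 0.36) and near 0 against PRDX1MT.

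Over all 10 genes, 0 passed the edgeR threshold (adjusted p under 0.05) in DKO against WT, where 0.468% of all genes tested passed, 3 higher and 88 lower. That balance depended on the method, with 56 higher and 206 lower by DESeq2 and 130 higher and 405 lower with no filter on low counts. With the remaining clone set against WT and PRDX1MT joined, 4 genes were higher and 17 lower without clone 1, and 37 were higher and 55 lower without clone 5. Against PRDX1MT 0 of the 10 passed, where 0.206% of all genes did. At an unadjusted p under 0.05 there were 988 and 912 genes in these comparisons, none of them among the 10. DESeq2 also called 0 of the 10 in both. The 2 comparisons share the DKO clones, so they are not independent. The 95% interval of a gene reached a median of 1.09 log2 units to either side of its ratio, so a 2-fold difference would have left 0 inside such an interval.

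**Figure D2:**
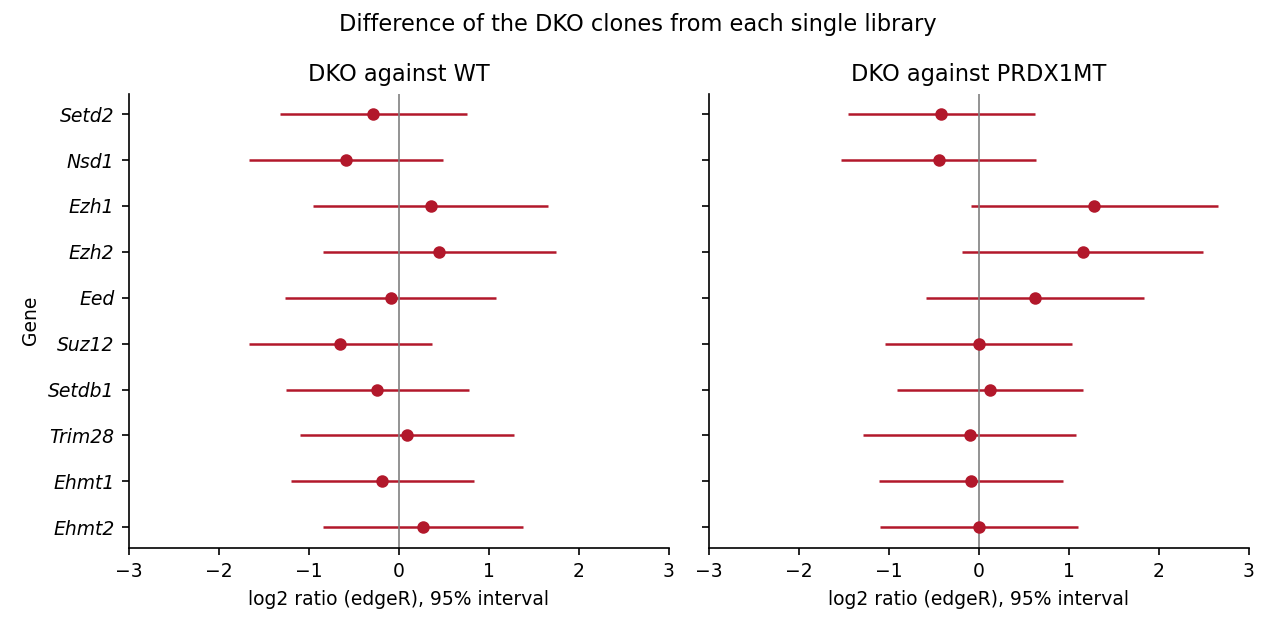
Log2 ratio of the DKO clones to WT (left) and to PRDX1MT (right) for each gene, as points with 95% intervals from the edgeR fit. Every interval includes 0, and those of Ezh1 and Ezh2 against PRDX1MT reach -0.09 and -0.19 at their lower ends.

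Between PRDX1MT and WT there is 1 library each, so ratios have no test and their intervals cover counting error only. The log2 ratio was -0.93 for Ezh1 (95% interval -1.05 to -0.80), -0.71 for Ezh2 (-0.85 to -0.57), -0.71 for Eed (-0.92 to -0.51) and -0.65 for Suz12 (-0.76 to -0.54). WT levels were thus 1.90, 1.63, 1.64 and 1.57 times those of PRDX1MT. A size rule of 2-fold, with at least 100 reads and an interval that excludes 0, was met by 0 of the 10 genes, against 9.67% of all genes tested. At 1.5-fold, 4 of the 10 genes were lower in PRDX1MT, the 4 PRC2 genes, against 12.0% of all genes. The other 6 genes were nearer to WT, between -0.36 for Setdb1 and 0.27 for Ehmt2.

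The ratio of PRDX1MT to WT varied with the GC content of transcripts. Over 19433 genes its median was -0.55 in the lowest of 20 GC bins and 0.57 in the highest (Pearson r = 0.293 and Spearman rho = 0.354 across genes, which are not independent replicates). The trend was smaller in the DKO clones against WT, with bin medians between -0.34 and 0.27 for clone 1 (rho = 0.177) and between -0.47 and 0.31 for clone 5 (rho = 0.215). With GC-bin offsets in the edgeR fit, the log2 ratio of DKO to WT turned to -0.20 for Trim28 and -0.02 for Ehmt2. For Setd2 it was -0.11, against -0.28 without offsets, and for Nsd1 -0.50, against -0.59. Against PRDX1MT, the ratios with offsets were -0.53 for Setd2 and -0.50 for Nsd1. With the median of its GC bin removed, Setd2 was at -0.01 in clone 1 against WT and at -0.20 in clone 5 against WT. The 4 PRC2 transcripts had 41.6% (Suz12), 44.4% (Ezh2), 47.8% (Eed) and 51.2% (Ezh1) GC, against 60.8% for Ehmt2 and 59.6% for Trim28. With the median of its GC bin removed, the log2 ratio of PRDX1MT to WT was -1.03 for Ezh1, -0.59 for Eed, -0.46 for Ezh2 and -0.27 for Suz12. Ezh1 and, by a narrow margin, Eed kept a difference of 1.5-fold, and Ezh2 and Suz12 did not. Counting error is wider than the margin of Eed, whose interval before removal ran from -0.92 to -0.51. In the same calculation Setd2 was at 0.44, Trim28 at -0.37, Setdb1 at -0.37 and Ehmt2 at -0.30. The share of counts from mitochondrially encoded genes also differed, at 2.05% and 0.872% in DKO clones 1 and 5, 0.519% in PRDX1MT and 2.08% in WT, and its part in these ratios was not tested.

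**Figure D3:**
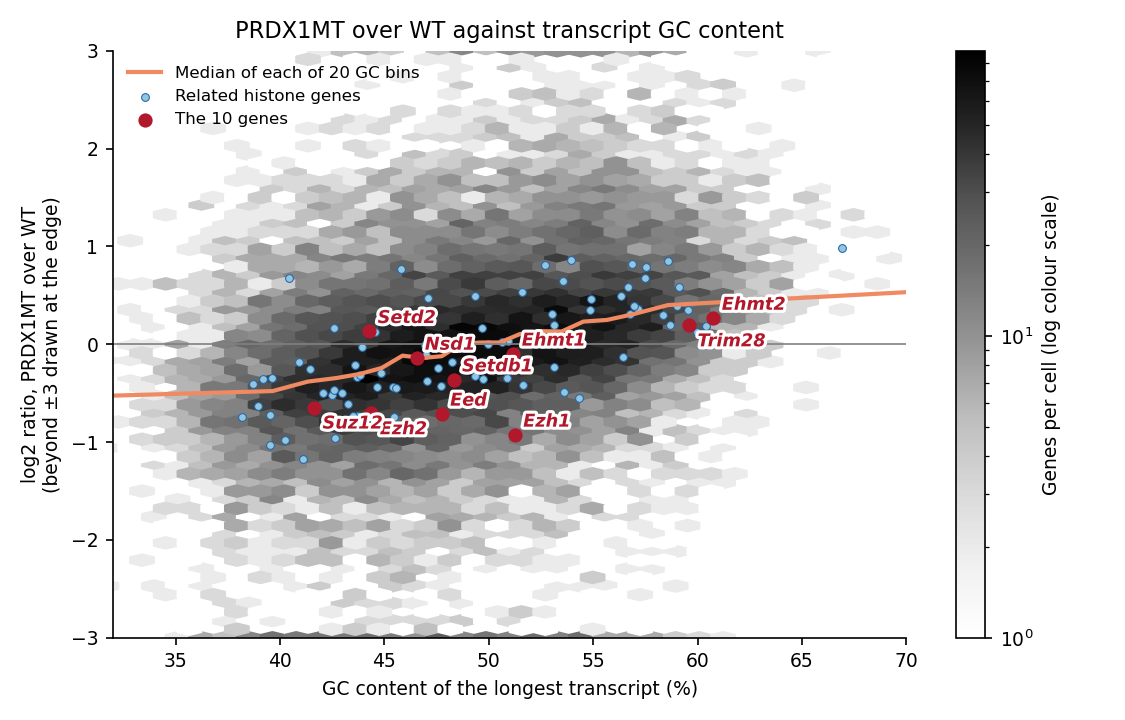
Log2 ratio of PRDX1MT to WT for each gene tested against the GC content of its longest transcript (grey, darker for more genes), with the median of 20 GC bins as a line, related histone methylation genes in blue and the 10 genes in red. Bin medians run between -0.55 and 0.57, and Ezh1, at -0.93, lies farthest below the line among the 10.

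Between the DKO clones, Ezh1 and Ezh2 were the 2 genes of the 10 that met the 2-fold size rule, which 11.6% of all genes tested met. Clone 5 had less Ezh1 than clone 1 (log2 ratio -1.09, 95% counting interval -1.19 to -0.99) and more Ezh2 (1.04, 95% counting interval 0.94 to 1.15). Trim28 was at 0.57, Eed at 0.32 and Suz12 at 0.26 in the same direction as Ezh2, and the other 5 genes lay between -0.19 and 0.21. Set singly against WT, clone 1 had a log2 ratio of 0.80 for Ezh1 and -0.17 for Ezh2, and clone 5 had -0.29 for Ezh1 and 0.88 for Ezh2. Neither clone had a gene of the 10 past 2-fold from WT, where 10.6% of all genes passed for clone 1 and 9.27% for clone 5.

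The balance of the catalytic subunits can be read within a library, without scaling between libraries. Ezh2 made up 29.9% of Ezh1 plus Ezh2 per kilobase in DKO clone 1 (95% exact interval 28.5 to 31.3%) and 65.2% in DKO clone 5 (63.5 to 66.8%). It made up 49.3% in PRDX1MT (46.5 to 52.0%) and 45.5% in WT (43.9 to 47.1%). So clone 1 was mostly Ezh1, clone 5 mostly Ezh2, and the other 2 libraries lay between them with intervals that meet. With the GC-bin medians of each library's ratio to WT removed, the Ezh2 share was 32.1% and 68.3% in DKO clones 1 and 5 and 55.3% in PRDX1MT (52.5 to 58.0%), whose interval no longer met that of WT. The intervals cover counting error only. Proliferation genes moved with Ezh2 between the clones. Their 38 genes summed to 2392 and 6101 CPM in DKO clones 1 and 5, 2931 CPM in PRDX1MT and 3029 CPM in WT, and all 38 were higher in clone 5 than in clone 1 (32 past the size rule, median log2 ratio 1.38). Mki67, a marker of dividing cells, was at 229 and 661 CPM in DKO clones 1 and 5, at 282 CPM in PRDX1MT and at 426 CPM in WT. In bulk RNA, more cells of a state and more RNA per cell cannot be told apart, and the part of proliferation in the Ezh1 and Ezh2 values was not tested.

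**Figure D4:**
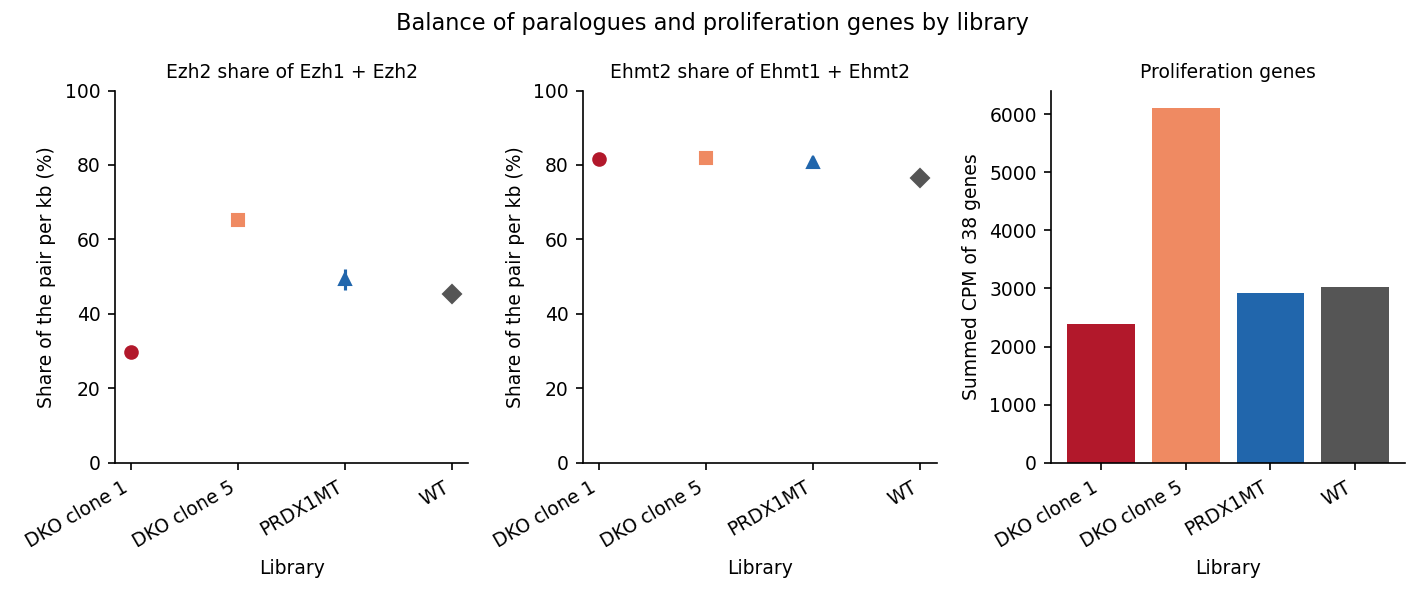
Share of Ezh2 in Ezh1 plus Ezh2 (left) and of Ehmt2 in Ehmt1 plus Ehmt2 (middle), in percent of the level per kilobase with exact 95% intervals, and summed CPM of 38 proliferation genes (right, bars) in each library. The Ezh2 share is 29.9% in DKO clone 1 and 65.2% in DKO clone 5, the Ehmt2 share stays between 76.6% and 81.9%, and the proliferation sum is 2392 CPM for clone 1 and 6101 CPM for clone 5.

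Among the H3K9 genes, the Ehmt pair varied least. Ehmt1 was at 80.6 and 80.0 CPM in DKO clones 1 and 5, at 85.3 CPM in PRDX1MT and at 91.4 CPM in WT. Ehmt2 was at 240 and 246 CPM in DKO clones 1 and 5, at 243 CPM in PRDX1MT and at 202 CPM in WT. The DKO means, 80.3 ± 0.45 CPM for Ehmt1 and 243 ± 3.62 CPM for Ehmt2 (SD, n = 2), had the smallest SDs relative to the mean of the 10 genes. Against WT the log2 ratio was -0.19 for Ehmt1 (95% interval -1.20 to 0.83) and 0.27 for Ehmt2 (95% interval -0.84 to 1.38), and neither passed. Ehmt2 made up 81.5% and 81.9% of the pair per kilobase in DKO clones 1 and 5, 80.8% in PRDX1MT and 76.6% in WT, with WT lowest (75.9 to 77.2%). That order depended on GC content. With the GC-bin medians removed, the Ehmt2 share was 78.9% and 79.6% in DKO clones 1 and 5 and 75.3% in PRDX1MT (74.4 to 76.3%), which put PRDX1MT below WT with intervals that meet.

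Setdb1 was at 41.8 and 48.4 CPM in DKO clones 1 and 5, at 41.4 CPM in PRDX1MT and at 53.2 CPM in WT, with WT highest. Its log2 ratio of DKO to WT was -0.24 (SE 0.44, 95% interval -1.26 to 0.78). Trim28 was at 215 and 320 CPM in DKO clones 1 and 5, at 287 CPM in PRDX1MT and at 251 CPM in WT, so the clones lay on either side of both other libraries. Its log2 ratio of DKO to WT was 0.09 (SE 0.51, 95% interval -1.10 to 1.28). In PRDX1MT against WT, the log2 ratios of Setd2 (0.13), Trim28 (0.19) and Ehmt2 (0.27) turned to -0.14, -0.08 and -0.01 when libraries were scaled by total counts alone, a scaling that moves all genes down together and puts their median at -0.28.

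Some exons of these genes overlap other genes, and how the authors' counting treated them is not given. Antisense genes cover 6.82% of the exon bases of Eed, 3.60% of Suz12 and 2.61% of Ezh2, and 2 antisense genes cover 3.63% and 1.09% of Setdb1. On the same strand, Gm37139 covers 0.259% of the exon bases of Ehmt1.

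The wider machinery was followed through 84 related genes in 9 lists, of which 83 had enough reads to be tested. In DKO against WT and in DKO against PRDX1MT, 0 of the 83 passed the adjusted edgeR threshold, against the 0.468% and 0.206% of all genes given above. At an unadjusted p under 0.05 they numbered 2 against WT (Epop and Fam208a) and 1 against PRDX1MT (Epop). Median log2 ratios of DKO to WT lay between -0.33 for the H3K27 demethylases and 0.14 for the PRC1 subunits, against 0.03 over all genes tested. In PRDX1MT against WT 2 of the 83, Rnf2 and Smarcad1, met the 2-fold size rule, and between the DKO clones 10 did, against the 9.67% and 11.6% of all genes given above. The count between the clones is near that share. With GC-bin medians removed, the PRDX1MT ratios of Rnf2 and Smarcad1 were -0.56 and -0.79, neither past 2-fold, while Pcgf5 went from 0.68 to 1.16. Setdb2, Jmjd1c and Dot1l were at -0.62, -0.27 and 0.37 in that calculation. Ratios of related genes below are without GC correction unless stated.

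Among PRC2 accessory subunits, Epop, which links PRC2 to elongin, was lowest in the DKO clones. It was at 0.59 and 0.91 CPM in DKO clones 1 and 5, at 10.3 CPM in PRDX1MT and at 5.15 CPM in WT, so the clones lay below both other libraries. Its log2 ratio was -2.78 against WT (edgeR adjusted p = 0.232) and -3.77 against PRDX1MT (edgeR adjusted p = 0.111), the smallest adjusted p of the 83 genes in each comparison. In PRDX1MT against WT, 4 of the 9 genes on this PRC2 list were higher and 5 lower, while the 4 PRC2 genes of the 10 were all lower. The list includes Rbbp4 and Rbbp7, often counted as core subunits, which were lower, at log2 ratios of -0.82 and -0.43. The higher ones included Epop, Phf19 and Phf1, at log2 ratios of 0.98, 0.86 and 0.85. With GC-bin medians removed, Epop, Phf19 and Phf1 were at 0.42, 0.73 and 0.45, and Rbbp4 and Rbbp7 at -0.58 and -0.19. Mtf2, a subunit that brings PRC2 to CpG islands, was at 11.5 and 13.3 CPM in DKO clones 1 and 5, at 14 CPM in PRDX1MT and at 23.6 CPM in WT. The sister complex PRC1 ubiquitinates H2A through RING1B, encoded by Rnf2, or RING1A, encoded by Ring1. Rnf2 was at 41.3 and 32.5 CPM in DKO clones 1 and 5, at 21.8 CPM in PRDX1MT and at 44.7 CPM in WT. The log2 ratio of PRDX1MT to WT for Rnf2 was -1.03, and -0.56 with the median of its GC bin removed. Ring1 went the other way, at 0.82, and 0.51 with the median of its GC bin removed. Against WT, Ring1 was at 0.49 in DKO clone 1 and at 0.62 in DKO clone 5. Cbx2 and Cbx6, which bind methylated histone through chromodomains, had log2 ratios of DKO to WT of 0.74 and 0.66. Of the H3K27 demethylases, Kdm6a (UTX) was at -0.61 and Kdm6b at -0.05 in DKO against WT, and Kdm6b differed between the clones, with 168 CPM for clone 1 against 68.6 CPM for clone 5.

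For H3K36, Setmar had the largest ratio of its list, at 0.70 and 0.69 CPM in DKO clones 1 and 5, 1.73 CPM in PRDX1MT and 1.87 CPM in WT, a low level in every library. Smyd2 was at 0.42 in DKO against WT and at 0.64 in PRDX1MT against WT (log2 ratios). Nsd3 was at 120 and 121 CPM in DKO clones 1 and 5, at 107 CPM in PRDX1MT and at 107 CPM in WT, so it did not share the lower levels of Setd2 and Nsd1 in the clones. The demethylases Kdm4a and Kdm4b were at -0.34 and 0.45 in DKO against WT, and Kdm8 at -0.55 in PRDX1MT against WT. For H3K9, Fam208a (Tasor), the core of the HUSH complex that works with SETDB1, was at 22.8 and 16.2 CPM in DKO clones 1 and 5, at 26.9 CPM in PRDX1MT and at 41.7 CPM in WT. Its log2 ratio of DKO to WT was -1.10 (SE 0.46, edgeR adjusted p = 0.971). Smarcad1, a remodeller that works with TRIM28, was at 43.0 and 36.3 CPM in DKO clones 1 and 5, at 22.2 CPM in PRDX1MT and at 50.2 CPM in WT. Chaf1b, a subunit of the histone chaperone CAF-1, was at 26.1 and 56.7 CPM in DKO clones 1 and 5, at 25.8 CPM in PRDX1MT and at 18.3 CPM in WT.

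Other H3K9 methyltransferases included Mecom and Setdb2, at log2 ratios of -0.49 and -0.45 in DKO against WT, and Setdb2 was at -0.96 in PRDX1MT against WT. The H3K9 demethylase Kdm7a was at 82.4 and 13.7 CPM in DKO clones 1 and 5, at 23.7 CPM in PRDX1MT and at 30.2 CPM in WT, so clone 1 stood apart from the other 3 libraries. Phf2 was at 0.24 in DKO against WT and Jmjd1c at -0.61 in PRDX1MT against WT (log2 ratios). Among enzymes of other marks, the H4K20 methyltransferases Kmt5c and Kmt5b were at -0.39 and -0.38 in DKO against WT, and Dot1l, which methylates H3K79, was at 0.68 in PRDX1MT against WT. The 10 related genes past 2-fold between the clones included Nsd2, Phf19, Suv39h1, Suv39h2, Chaf1a and Chaf1b, all higher in clone 5, and Kdm6b, Jmjd1c and Kdm7a, lower in clone 5, with Kdm8 higher.

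**Figure D5:**
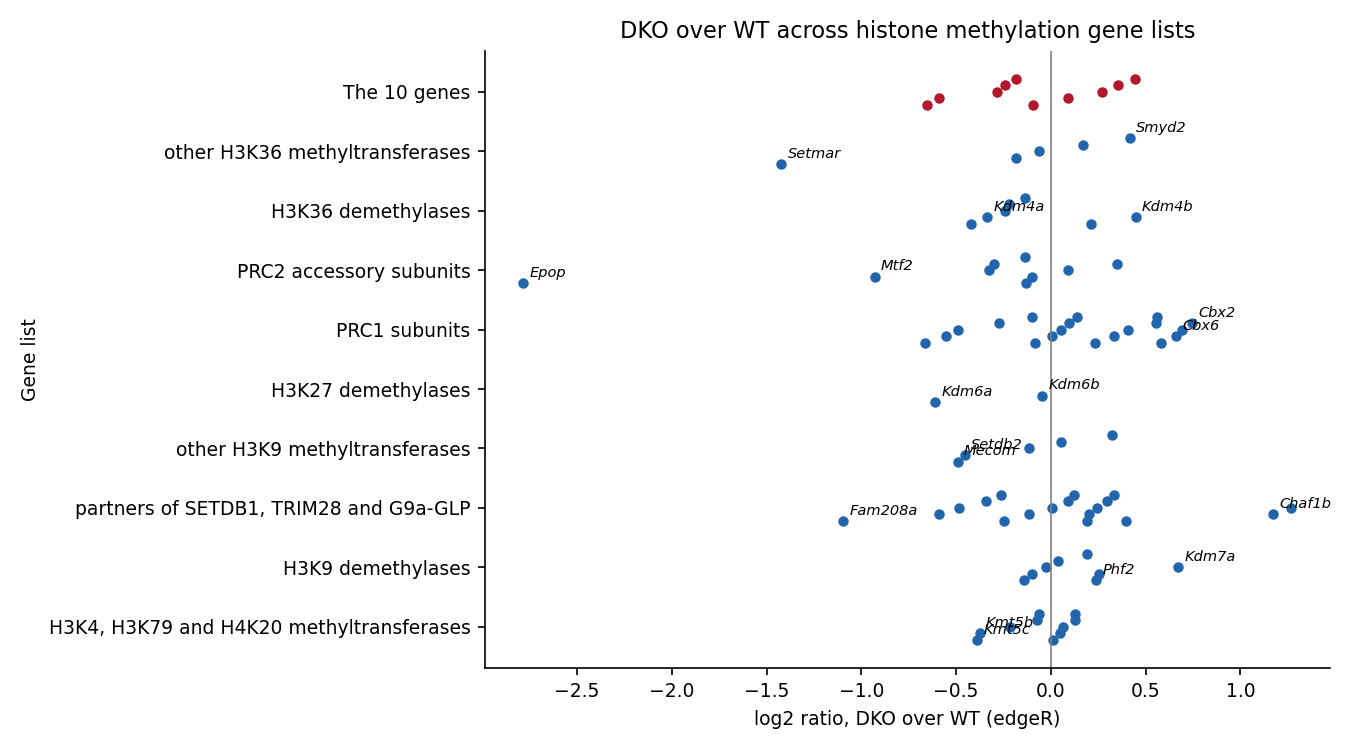
Log2 ratio of DKO to WT from the edgeR fit for the 10 genes (red) and for each tested gene of 9 related lists (blue), with the 2 genes of smallest unadjusted p in each list named. Epop, at -2.78, lies farthest from 0, and no gene shown passed the adjusted threshold.

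The genes whose 3 log2 ratios to WT (clone 1, clone 5 and PRDX1MT) lay nearest to those of Ezh1 were Ralgps2, Fkbp14 and mt-Nd5, among 8726 protein-coding genes averaging at least 10 CPM, with root mean square differences of 0.07, 0.12 and 0.15. Ralgps2 was at 42.2 and 18.7 CPM in DKO clones 1 and 5, at 12.0 CPM in PRDX1MT and at 22.3 CPM in WT. In all, 20 genes lay within 0.25 of Ezh1. Nearest to Ezh2 were Dlx5, Jpt2 and Prim1, at 0.08, 0.09 and 0.11, with 32 genes within 0.25. Prim1, the DNA primase, was at 24.0 and 41.4 CPM in DKO clones 1 and 5, at 15.3 CPM in PRDX1MT and at 24.8 CPM in WT. Likeness over 4 libraries describes these libraries only.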

How the data were processed

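Total RNA libraries were made with a stranded kit after ribosomal RNA removal, per the labels' protocols, with alignment by STAR 2.6.1d to mm10, per the submitters' processing notes. How reads were counted, with which annotation and strand setting, is not given in the sources used here. Deposited files hold the authors' whole-number counts per gene and library, not normalized. Of 54532 identifiers, 54495 matched GENCODE M21 (GRCm38) and 37 stayed unnamed. No repeat cultures of a clone or line are stated. The p-values rest on the spread between the 2 DKO clones alone, whose technical part cannot be separated.

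Counts were fitted in R 4.3.3 with edgeR 4.0.16 (quasi-likelihood, TMM, filterByExpr, Benjamini-Hochberg over 19446 genes). The 3 groups shared 1 fit whose single residual degree of freedom comes from the 2 clones, so WT and PRDX1MT are assumed to vary like them. Single libraries were compared by log2 CPM ratio (prior count 2) with exact conditional binomial intervals, and PCR reads are not independent molecules, so intervals cover counting error only. Lengths are merged exons, and GC content is that of the longest transcript. DESeq2 1.42.0, other scalings, filters, lengths, clones left out and GC corrections were alternatives, all GC corrections and single-clone ratios added after seeing the data. The fit was tested on simulated data whose changes were all larger than the DKO ratios of the 10 genes. It cannot show how well changes of their size are found. Named related genes are the 2 with smallest p in DKO against WT and the 1 with the largest PRDX1MT ratio per list, plus markers. For Ezh1 and Ezh2, the widest-ranging of the 10, the 3 genes nearest in their ratios to WT are named. Mki67, Nsd3, Phf1, Phf19, Rbbp4, Rbbp7, Pcgf5, Ring1 and the genes past 2-fold between the clones were named after their values were seen. The 10 genes and all lists were chosen with earlier results of these data known.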

Additional observations from a re-analysis of the deposited data

How the results depend on the processing

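Under every alternative run, 0 of the 10 genes passed the adjusted threshold in either DKO comparison. The count over all genes moved far more, so it is not a stable figure. DKO against WT gave 91 genes in the edgeR fit, 262 with DESeq2, 535 with no filter on low counts, and 0 with a filter of 1 CPM in 2 libraries or with GC-bin offsets, where 490 and 883 genes had an unadjusted p under 0.05. DKO against PRDX1MT gave 40 genes, 215 with DESeq2, 13 with RLE scaling, 7 with total-count scaling, 404 with no filter, and 0 with the 1 CPM filter or GC-bin offsets (530 and 793 unadjusted). Leaving out DKO clone 1 gave 21 genes and leaving out clone 5 gave 92, in fits that join WT and PRDX1MT as 1 group and assume that the lone clone varies like them. Of 160 recomputed ratios of the 10 genes, 18 reversed, and the rest kept their direction, 2 of them moving by more than the SE when a clone was left out. Of the reversals, 7 came with 1 clone left out. Against WT, leaving out clone 1 and then clone 5 gave -0.2901 and 0.8 for Ezh1, 0.8752 and -0.1682 for Ezh2, 0.05654 and -0.2587 for Eed, and 0.3463 and -0.2224 for Trim28. Against PRDX1MT it gave 0.1215 and -0.1375 for Suz12, 0.1541 and -0.4146 for Trim28, and 0.01559 and -0.0148 for Ehmt2. The other reversals came with other settings. Suz12 against PRDX1MT was 0.01102 with DESeq2, 0.01103 with RLE, 0.153 with total counts and 0.04291 with no filter. Trim28 was -0.03249 against WT and 0.05056 against PRDX1MT with total counts, and -0.2018 and 0.1837 with GC-bin offsets. Ehmt1 against PRDX1MT was 0.07012 with total counts, and Ehmt2 was -0.02109 against PRDX1MT with the 1 CPM filter and -0.02413 against WT with GC-bin offsets. In PRDX1MT against WT, the number of the 10 past the size rule was 1 (Ezh1) with total counts or the GC bin median removed, 4 at 1.5-fold and 2 (Ezh1 and Eed) at 1.5-fold with the bin median removed. Between the clones it was 1 (Ezh1) with total counts. The Ezh2 share by longest transcript was 36.59% and 71.72% in DKO clones 1 and 5, 56.83% in PRDX1MT and 53.04% in WT, and by coding length 27.85% and 62.92% in the clones and 43.05% in WT. The Ehmt2 share by coding length was 75.05% and 75.59% in DKO clones 1 and 5, 74.17% in PRDX1MT and 69.02% in WT. With GC-bin medians removed, the Ezh2 share was 32.07% and 68.33% in DKO clones 1 and 5 and 55.26% in PRDX1MT, and the Ehmt2 share 78.88%, 79.64% and 75.34%. The causes were not tested. No paired analysis was possible because WT and PRDX1MT had 1 library each.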
